A study of Mus musculus with 6 samples.

Results

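The loci described here were 189 of the 433 tRNA genes for which tag scores were available. They were chosen by position and structure alone: none carried the intron mark of the annotation, none lay on chromosome 1, 3 or 11, and none lay in the stretch of chromosome 13 between 21 and 24 Mb, in the mouse genome build mm9. The members were spread over 17 chromosomes, with 54 on chromosome 6, 21 on the X chromosome and 13 on chromosome 10, and carried 44 anticodons of 21 isotypes, where initiator methionine and selenocysteine count as isotypes of their own. RNA sequencing was performed on epididymal white adipose tissue (eWAT), the fat pad beside the epididymis, of 3 wild-type mice and 3 mice without *Maf1*. All were males of 22 to 24 weeks, fed a breeder chow without restriction and deprived of food overnight before the tissue was taken. The labels give the strain C57BL/6 for both genotypes, the *Maf1*-/- mice carried a knockout in the whole body made in the C57Bl/6J background, and no further allele or agent was named. Each mouse gave 1 library of total RNA depleted of ribosomal RNA, here named by genotype (WT or KO) and replicate number, from WT1 to KO3. The comparison asks how loss of MAF1, a repressor of RNA polymerase (Pol) III, changed the newly made and the mature RNA of these tRNA genes.

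A tRNA gene is transcribed by Pol III from a promoter inside the gene, whose A and B boxes are bound by the factor TFIIIC, and the polymerase stops at a run of T residues behind it. The precursor carries a 5′ leader and a 3′ trailer that are cut off within a short time, so its level follows synthesis, whereas the mature tRNA is long-lived. Most tRNA species are encoded by several genes of the same sequence, which differ only in the DNA around them. The gene of the selenocysteine tRNA, which decodes UGA in selenoproteins, has another promoter in vertebrates and is transcribed from elements in front of the gene, including a TATA box.

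A pair of scores was given for each locus and library, the tags found only in the precursor and the tags of the mature tRNA, both scaled between libraries and not divided by length. The member genes were 70 to 86 bases long, with a median of 72, so the length of the gene itself differed little between them. A leader or trailer, which only the precursor carries, can differ more. The first run of 4 or more T behind the gene began at position 5 at n-Tf6 and at 36 at n-Th4. Precursor scores of different loci thus do not stand for equal lengths. The value of 1 tag lay between 0.7625 and 1.69 score units, and many scores were fractions of a tag, down to 0.01. The counts over all genes summed to between 7207476 and 15971900 a library. *Maf1* itself had 655, 1120 and 852 counts in wild-type mice, against 150, 87 and 300 in mutant mice, with no overlap between genotypes. The Maf1 log2 fold change was −2.00, and the edgeR quasi-likelihood test gave an adjusted p of 0.9995, against 3.05e-05 with DESeq2. Adipocyte markers were present in every library, at a summed level of 11648 to 18458 CPM (counts scaled to the same library size) for 6 genes. The summed level of 6 epididymis markers was 11.98 CPM in WT1 and 793 CPM in KO1, and between 3628 and 6429 CPM in the other libraries; it was highest in KO3, and 3 of the 6 markers were at 0 in WT1 and in KO1. For 6 testis markers the sum lay between 0.723 and 748 CPM, highest in WT2, and the part of these cells in the results below was not tested.

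The sequences of the loci on which the results turn are given first, from the mm9 reference genome (NCBI build 37). In the genes, capitals mark the anticodon and the 6 bases GTTCNA, the core of the B box. The histidine gene below has 8 copies among all tRNA loci, of which n-Th5, n-Th4, n-Th3 and n-Th10 are members, and the phenylalanine gene has 5, of which n-Tf6, n-Tf3, n-Tf5 and n-Tf7 are members. For the selenocysteine loci and the cysteine loci, the sequences show how loci of the same name differ.
n-Th5, gene, chr2:122203704-122203775, plus strand: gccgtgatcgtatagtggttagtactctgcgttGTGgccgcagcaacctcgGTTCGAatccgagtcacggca
n-Tf6, gene, chr19:12076726-12076798, plus strand: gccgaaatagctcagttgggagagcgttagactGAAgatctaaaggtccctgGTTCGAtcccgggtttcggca
n-Tp10, gene, chr17:23677882-23677953, plus strand: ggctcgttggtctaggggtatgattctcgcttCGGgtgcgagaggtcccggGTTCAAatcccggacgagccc
n-Ts2, gene, chr7:19886593-19886678, plus strand: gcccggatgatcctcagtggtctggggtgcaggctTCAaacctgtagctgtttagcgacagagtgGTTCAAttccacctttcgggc
n-Ts1, gene, chr5:5627681-5627751, plus strand: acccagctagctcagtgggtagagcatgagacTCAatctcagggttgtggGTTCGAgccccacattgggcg
n-Tc5, gene, chr6:48291587-48291658, plus strand: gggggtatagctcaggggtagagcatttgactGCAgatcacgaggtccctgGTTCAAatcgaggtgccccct
n-Tc38, gene, chr6:48104713-48104784, plus strand: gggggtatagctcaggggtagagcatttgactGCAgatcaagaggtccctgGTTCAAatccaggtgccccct
n-Tc52, gene, chr17:71948611-71948682, plus strand: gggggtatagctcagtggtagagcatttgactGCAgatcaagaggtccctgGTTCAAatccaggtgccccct

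Copies of the same gene can be told apart only by their flanks. The first 50 bases behind the histidine, phenylalanine and proline loci follow, read 5′ to 3′ along the gene's strand, with the first run of 4 or more T in capitals.
n-Th5, after the gene, chr2:122203776-122203825, plus strand: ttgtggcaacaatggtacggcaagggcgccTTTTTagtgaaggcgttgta
n-Th4, after the gene, chr2:122201180-122201229, minus strand: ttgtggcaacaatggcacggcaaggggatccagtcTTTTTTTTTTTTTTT
n-Th3, after the gene, chr2:122203049-122203098, minus strand: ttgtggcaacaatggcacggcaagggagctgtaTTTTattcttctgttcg
n-Th10, after the gene, chr4:82265477-82265526, minus strand: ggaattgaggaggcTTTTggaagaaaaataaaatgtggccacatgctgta
n-Tf6, after the gene, chr19:12076799-12076848, plus strand: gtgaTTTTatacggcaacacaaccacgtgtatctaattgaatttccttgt
n-Tf3, after the gene, chr10:79711659-79711708, minus strand: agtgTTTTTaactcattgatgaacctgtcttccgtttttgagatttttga
n-Tf5, after the gene, chr14:118488697-118488746, minus strand: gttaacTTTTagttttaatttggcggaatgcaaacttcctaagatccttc
n-Tf7, after the gene, chr5:125886375-125886424, minus strand: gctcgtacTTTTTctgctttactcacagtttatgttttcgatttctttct
n-Tp10, after the gene, chr17:23677954-23678003, plus strand: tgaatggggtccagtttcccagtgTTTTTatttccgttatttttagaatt

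Summed over the 189 loci, the precursor score of wild-type mice was 868, 1113 and 1766, and that of *Maf1*-/- mice was 2697, 2463 and 5302. Every *Maf1*-/- library lay above every wild-type library, with means of 1249 ± 464 and 3487 ± 1576 (SD, n = 3) and a ratio of 2.79. Scaled to equal summed mature scores the ratio was 1.75. For the tRNA loci that are not members the ratio was 4.19. A few loci moved the ratio of the members, which was 3.32 without n-Ts2 and n-Tc5 and 2.24 without the histidine loci. These loci were left out with their values known. The members' share of all precursor tags was 41.9 to 48.2% in the wild type and 32.2 to 43.1% in the knockout, ranges that overlap. The mature score of the members was 1805, 2676 and 9764 in the wild type and 3395, 3622 and 8822 in the knockout. These genotypes overlapped, with means of 4748 ± 4366 and 5280 ± 3070 and a ratio of 1.11. WT3 and KO3 held by far the most mature tags of their genotype, and the ratio was 0.739 without KO3, 0.849 without WT1, 0.913 without WT2 and 2.36 without WT3. A change in RNA per cell and a change in the share of cells that make it cannot be told apart in such whole-tissue libraries.

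**Figure D1:**
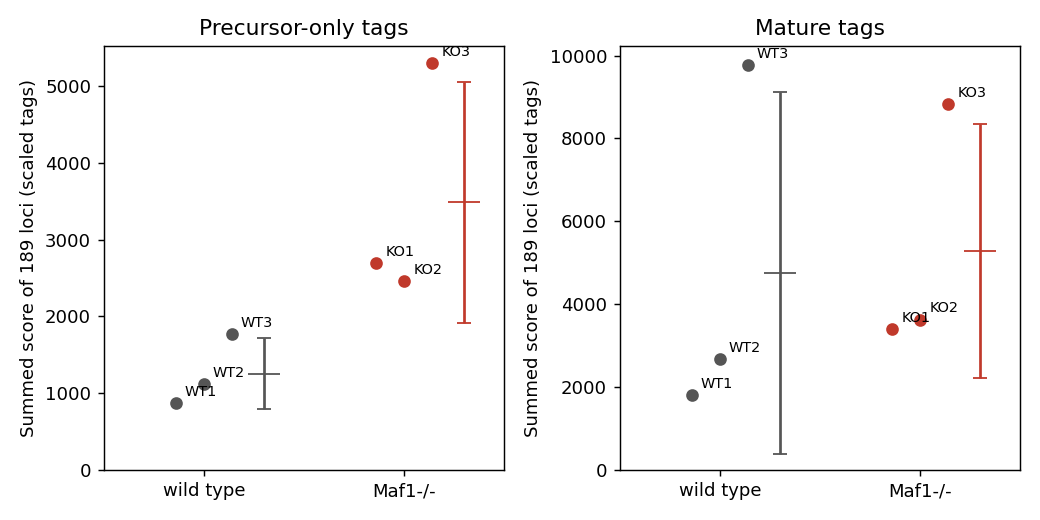
Summed precursor-only score (left) and mature score (right) of the 189 loci in each library, in scaled tags. Points are libraries, and the horizontal marks with bars are the mean and SD of 3 libraries. The 3 *Maf1*-/- libraries sit between 2463 and 5302 in precursor score, all above the wild-type libraries, while the mature scores of the genotypes overlap.

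A locus was tested if its mean score over the 6 libraries was at least 1. In precursor score 79 of the 189 members passed this filter, 27 had some score but a lower mean, and 83 were at 0 in every library. Of the 79, 23 passed only through the *Maf1*-/- libraries, and 4 of these 23, n-Tp10, n-Tk12, n-Tk13 and n-Tc52, are among the loci called. On the scale of log2(score + 1), limma called 10 of the 79 higher in the knockout at an adjusted p under 0.05, where 24.6% of all 276 tRNA loci tested were called. It called 0 members lower, as it did over all loci (0%), and 19 of the 79 members had an unadjusted p under 0.05, against 109 of all 276 loci. The median log2 fold change was 1.20 for the members tested and 1.57 for all loci tested, and since such loci entered through the knockout alone, neither value is read as a direction. The 10 loci were n-Th3, n-Th4, n-Th5 and n-Th10 (histidine), n-Tk12 and n-Tk13 (lysine), n-Tp10 (proline), n-Tf6 (phenylalanine), n-Ts9 (serine) and n-Tc52 (cysteine). In all 10 the genotypes did not overlap, as in 23 of the 79 members (39.5% of all loci tested), and none was lower without overlap (0%). The number of members called was 1 without WT1, 3 without WT2, 9 without WT3, 6 without KO1, 15 without KO2, 4 without KO3 and 0 without both WT3 and KO3. With the replicate number as a block it was 21, the same 10 loci and 11 more, where 37.7% of all loci were called.

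**Figure D2:**
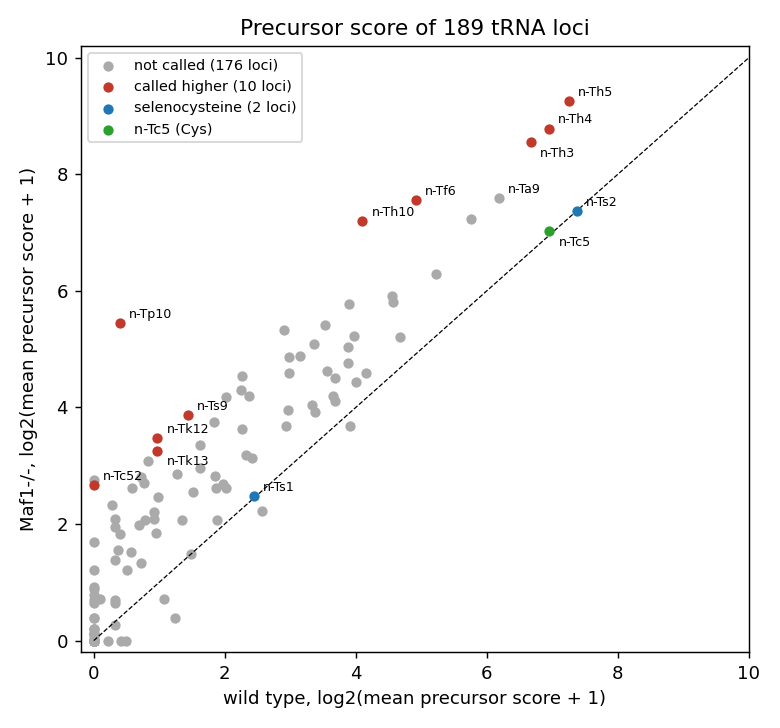
Mean precursor score of each of the 189 loci in wild type (horizontal) and *Maf1*-/- (vertical) libraries, both as log2(mean + 1), n = 3 each. The dashed line marks equal scores. The 10 loci called higher lie above the line, whereas n-Ts2, n-Ts1 and n-Tc5 lie near it.

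The 3 histidine loci on chromosome 2 held the highest precursor scores of all members, and all 4 histidine loci were called higher. The genes n-Th4, n-Th3 and n-Th5 lie within 2.55 kb of intergenic DNA on chromosome 2, and n-Th10 lies in an intron of *Nfib*, on the same strand as that gene, on chromosome 4. Histidine tRNA reads the codons for the amino acid histidine, and the only member loci for it are these 4. The precursor score of n-Th5 was 103, 130 and 222 in the wild type and 411, 515 and 899 in the knockout. The lowest knockout library was well above the highest wild-type library, and the log2 fold change was 1.99 ± 0.57 (SE), with an adjusted p of 0.00555. At n-Th4 the scores were 51.7, 104 and 211 against 260, 314 and 741, with a log2 fold change of 1.90 ± 0.63 (adjusted p = 0.0177). At n-Th3 they were 28.4, 89.6 and 184 against 209, 285 and 628, with a log2 fold change of 2.09 ± 0.67 (adjusted p = 0.0137). WT1 was the lowest and KO3 the highest library at all 3 loci, and the genotypes met most closely at WT3 and KO1. At n-Th10 the scores were 4.18, 18.5 and 25.8 in the wild type and 180, 76.3 and 181 in the knockout, and the log2 fold change was 3.29 ± 0.89 (adjusted p = 0.00369). This locus had the lowest level of the 4 and the largest change, but the 95% intervals of the 4 changes overlapped and their differences were not tested. Over 18 alternative settings n-Th10 was called in 16, n-Th5 in 13 and n-Th3 and n-Th4 in 11 each. The 3 genes on chromosome 2 made up 21.1 to 35.0% of the members' precursor score in the wild type and 32.6 to 45.2% in the knockout.

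The mature scores of the 4 histidine loci were nearly the same at each of them. At n-Th5 they were 4.30, 8.83 and 46.6 in the wild type and 11.4, 11.5 and 39.3 in the knockout. The genotypes overlapped fully, and the log2 fold change was 0.44 ± 1.16 (adjusted p = 0.854). The difference between the precursor and the mature log2 fold change was 2.80 at n-Th10, with a 95% interval of 1.00 to 4.61 and an adjusted p of 0.0802. At n-Th5 it was 1.55, with an interval of −0.09 to 3.19. Behind the gene, the loci on chromosome 2 begin with nearly the same trailer, with T runs at position 31 (n-Th5), 36 (n-Th4) and 34 (n-Th3). The locus n-Th10 has another trailer with a T run at position 15. Precursor tags may be shared between the loci on chromosome 2, so their calls are not counted as independent.

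The proline gene n-Tp10 had the largest precursor change of the members. It lies in a group of 8 genes for arginine, lysine and proline tRNAs within 16.4 kb on chromosome 17. Its precursor score was 0, 0.76 and 0.19 in the wild type and 30.9, 8.45 and 87.9 in the knockout. The wild-type libraries were thus at or below the value of 1 tag, and all knockout libraries were above them. The log2 fold change was 4.55 ± 0.99 (adjusted p = 3.02e-04), and it ranged from 2.74 to 6.69 over the alternative settings. It was called in 17 of 18 such settings. The locus passed the filter only through the knockout libraries, so these values are not read as a direction. The mature score, which 3 tRNA loci of that sequence share, was 0.07, 1.96 and 12.6 against 2.08, 4.75 and 29.3, with overlap and a log2 fold change of 1.21 ± 1.14 (adjusted p = 0.657). Precursor and mature change differed by 3.33 (95% interval 1.23 to 5.44, adjusted p = 0.0738). With the replicate block, this difference and that of n-Th10 passed the threshold, with adjusted p of 0.0264 and 0.0330.

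The same group on chromosome 17 held 3 lysine genes of the same sequence with unlike precursor scores. At n-Tk12 the scores were 0.33, 0.38 and 2.17 in the wild type and 11.8, 10.4 and 8.06 in the knockout, with a log2 fold change of 2.61 ± 0.96 (adjusted p = 0.0330). At n-Tk13 they were 0.33, 0.38 and 2.17 against 8.78, 8.72 and 8.06, with a log2 fold change of 2.40 ± 0.95 (adjusted p = 0.0481). The genotypes were separate at both loci, which passed the filter only through the knockout libraries. The scores of all wild-type libraries and of KO3 were the same at both, so these are not independent observations. The call was kept in 11 of 18 alternative settings at n-Tk12 and in 8 of 17 at n-Tk13. At n-Tk14 the scores were 9.46, 7.77 and 10.9 against 0.32, 18.0 and 23.9. There the knockout libraries lay on both sides of the wild type, with a log2 fold change of −0.27 (95% interval −2.25 to 1.72). Of the remaining genes in the group, n-Tp11 was listed at 0 in all wild-type libraries and at 8.95, 0 and 8.38 in the knockout (adjusted p = 0.0580). It too passed the filter only through the knockout libraries. At n-Tp16 the wild type was at 9.13, 8.89 and 9.66 and the knockout at 30.4, 13.5 and 54.5, without overlap and with an adjusted p of 0.227. All 8 genes were tested and 3 were called, where 24.6% of all tRNA loci tested were called. These 3, n-Tp10, n-Tk12 and n-Tk13, all passed the filter only through the knockout libraries, so the count is not read as a trait of the group. The summed precursor score of the 8 genes was 42.4 in the wild type and 178 in the knockout on average.

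Among the phenylalanine loci, 1 of 4 genes of the same sequence carried most of the precursor tags. The locus n-Tf6 on chromosome 19 had scores of 28.4, 20.1 and 38.8 in the wild type and 235, 105 and 219 in the knockout. The genotypes were far apart, with a log2 fold change of 2.60 ± 0.81 (adjusted p = 0.0121), and the call was kept in 14 of 18 alternative settings. At n-Tf3 the scores were 0, 3.81 and 5.31 against 31.8, 0 and 19.7, and at n-Tf5 they were 0, 1.01 and 1.12 against 10.9, 0.55 and 4.96. At n-Tf7 they were 0, 0.25 and 2.57 against 0, 0.55 and 7.29. The genotypes overlapped at these 3 loci, none of which was called, and KO2 had no or almost no score at any of them. The mature score was the same at all 4, 0.64, 1.45 and 2.45 in the wild type and 2.60, 3.46 and 15.1 in the knockout. These values did not overlap, yet the log2 fold change of 1.41 ± 1.09 had an adjusted p of 0.635, and the 4 loci with the same values are not independent. The flanks of the 4 loci have little in common. The 50 bases in front of each gene, read 5′ to 3′ up to the base before it, follow here, and the first T run behind the gene begins at position 5 in n-Tf6 and n-Tf3, 7 in n-Tf5 and 9 in n-Tf7.
n-Tf6, before the gene, chr19:12076676-12076725, plus strand: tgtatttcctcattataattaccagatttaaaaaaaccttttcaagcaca
n-Tf3, before the gene, chr10:79711782-79711831, minus strand: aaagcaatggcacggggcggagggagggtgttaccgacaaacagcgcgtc
n-Tf5, before the gene, chr14:118488820-118488869, minus strand: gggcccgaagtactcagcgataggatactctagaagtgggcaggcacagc
n-Tf7, before the gene, chr5:125886498-125886547, minus strand: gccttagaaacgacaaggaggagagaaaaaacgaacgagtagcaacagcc

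A serine and a cysteine locus completed the members called. At n-Ts9, an intergenic serine gene on chromosome 4, the precursor score was 0.66, 0.76 and 3.68 in the wild type and 12.9, 11.8 and 15.9 in the knockout. All knockout libraries were alike and above the wild type, with a log2 fold change of 2.60 ± 0.98 (adjusted p = 0.0380). The cysteine gene n-Tc52 on chromosome 17 was listed at 0 in each wild-type library and at 1.32, 6.76 and 7.91 in the knockout (adjusted p = 0.0336). No fold is given for it, since it passed the filter only through the knockout libraries. The locus n-Tc53 on chromosome 9 has the same gene sequence and was at 0 in all 6 libraries. The call was kept in 9 of 18 alternative settings at n-Ts9 and in 10 of the 17 in which n-Tc52 was tested.

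**Figure D3:**
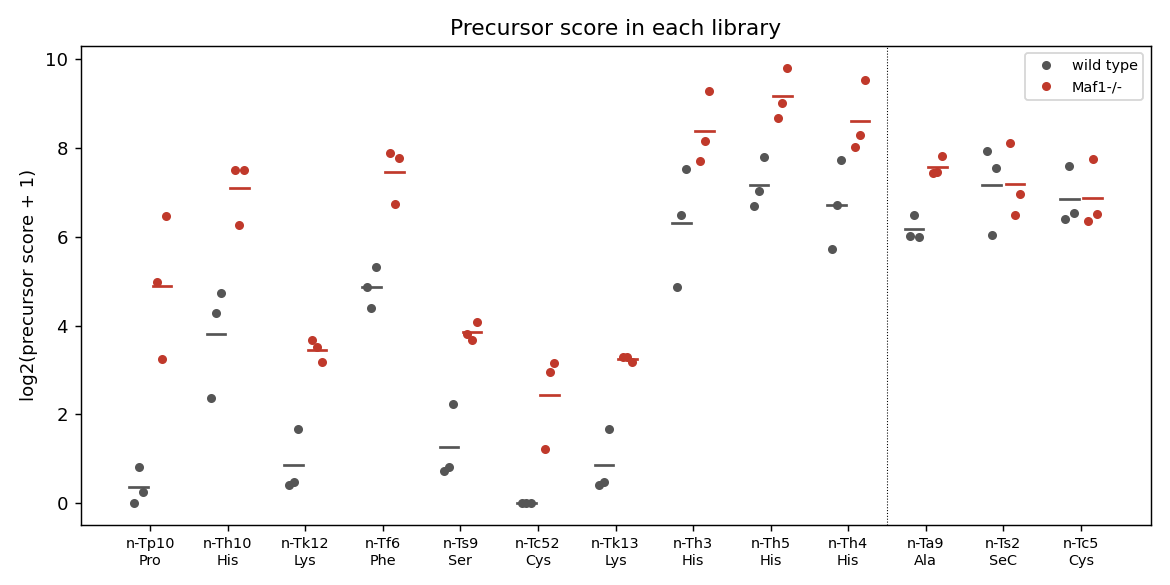
Precursor score in each library, as log2(score + 1), at the 10 loci called higher, in order of fold change, and, right of the dotted line, at n-Ta9, n-Ts2 and n-Tc5. Points are libraries, with the wild type on the left of each pair, and bars are means of 3. At n-Ts2 and n-Tc5 the genotypes overlap, while at the other 11 loci they do not.

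In 13 more members the genotypes did not overlap and no call was made. The highest of these was n-Ta9, an alanine gene on chromosome 19, with precursor scores of 63.9, 89.3 and 62.8 in the wild type and 173, 176 and 225 in the knockout. Its replicates were close together, and the log2 fold change was 1.40 ± 0.72, with an adjusted p of 0.129 and of 0.00394 with the replicate block. The threonine gene n-Tt15 on chromosome 14 had 2.02, 6.86 and 10.6 against 19.1, 23.7 and 75.4, with a log2 fold change of 2.37 ± 1.01 (adjusted p = 0.0683, and 0.0160 with the block). The lysine gene n-Tk17 on chromosome 12 had 1.01, 0.38 and 0.96 against 10.4, 6.76 and 5.12, with a log2 fold change of 2.21 ± 0.94 (adjusted p = 0.0683, and 0.0194 with the block). This lysine locus passed the filter only through the knockout libraries, so its values are not read as a direction. For a single locus, the smallest two-sided p that an exact permutation test of 3 against 3 libraries can give is 0.1, which n-Ta9, n-Tt15 and n-Tk17 reached. The arginine gene n-Tr6 on chromosome 14 showed overlap, with 15.2, 56.5 and 88.0 in the wild type and 106, 81.2 and 260 in the knockout (log2 fold change 1.60 ± 0.80, adjusted p = 0.122, and 0.0184 with the block).

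Several well expressed members had a log2 fold change near 0. Of the loci with a mean precursor score of at least 10, those with a log2 fold change between −0.5 and 0.5 were n-Ts2, n-Tc5, n-Te17, n-Te14, n-Tl25, n-Tp18, n-Tl8 and n-Tk14. The glutamate locus n-Te17 had 10.5, 19.2 and 43.6 in the wild type and 26.0, 9.85 and 72.2 in the knockout, with KO2 the lowest library of all. The glutamate locus n-Te14, in an intron of *Elf1*, had 5.58, 16.4 and 28.5 against 8.95, 3.38 and 57.1, again with KO2 lowest. The leucine locus n-Tl8 had 14.2, 10.7 and 17.4 against 6.96, 11.8 and 16.8. The interval of each of these changes was wide, from −2.27 to 1.70 at n-Tl8, so changes of severalfold in either direction are within the error. The lowest log2 fold change of all 79 members was −0.66 (95% interval −2.55 to 1.23) at the arginine locus n-Tr19, with 6.08, 3.81 and 4.83 against 0.99, 1.69 and 8.38.

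The 2 selenocysteine loci were unlike in level and sequence, and neither was called. The locus n-Ts2 on chromosome 7 is the gene with the 86-base sequence shown above, and n-Ts1 on chromosome 5, which is 71 bases long and lies in an intron of *A330021E22Rik*, on the opposite strand, carries the same anticodon in another sequence. The precursor score of n-Ts2 was 242, 64.9 and 186 in the wild type and 277, 89.6 and 123 in the knockout. The genotypes lay on top of each other, with means of 164 ± 90.6 and 163 ± 100.04, and WT1 and KO1 were the highest library of each genotype. The log2 fold change was 0.02 ± 0.68 (95% interval −1.32 to 1.36, adjusted p = 0.983), and the exact permutation test gave p = 1. Over the other members WT1 held the lowest precursor sum, 626 against 1048 and 1580 in WT2 and WT3, the reverse of its place at n-Ts2. The mature score of n-Ts2 was the highest of all members, 354, 944 and 2905 in the wild type and 381, 1170 and 1729 in the knockout. These values overlapped as well, with a log2 fold change of −0.11 ± 0.73 (adjusted p = 0.934). The locus n-Ts1 had precursor scores of 2.02, 4.57 and 6.76 against 0.99, 3.38 and 9.31, with a log2 fold change of −0.18 (95% interval −2.07 to 1.71). Its mature score was at 0 in 5 libraries and 0.96 in WT3. No test compared these changes with those of other loci, and the interval of n-Ts2 holds the median of the members.

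In front of n-Ts2 lies the string TATATAA, which begins 29 bases before the gene and is in capitals in the 50 bases shown here.
n-Ts2, before the gene, chr7:19886543-19886592, plus strand: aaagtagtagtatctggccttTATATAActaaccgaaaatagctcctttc
The string was found on the gene's strand within 50 bases in front of 3 of the 189 members (1.59%), of 7 of all 433 tRNA loci (1.62%) and in 2 of 433 windows of the same length about 1 kb further on (0.46%). The other members were the cysteine locus n-Tc49 and the arginine locus n-Tr13, at 13 and 37 bases. A match describes these letters only.

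Genes of the pathways around the selenocysteine tRNA were examined in the counts over all genes. Its gene uses a set of promoter factors that differs in part from that of other tRNA genes. Of 8 genes for making selenocysteine on its tRNA and inserting it, 0 were called by edgeR and 0 had an unadjusted p under 0.05. Their median log2 fold change was 0.08, against 0.01 over all 16101 genes tested, of which 0% were called in either direction. *Sepsecs*, whose product forms selenocysteine on the tRNA, was at 40.1 ± 2.54 CPM in the wild type and 40.1 ± 3.92 CPM in the knockout. *Sephs1*, related to the enzyme that makes the selenium donor, was at 25.7 ± 2.22 against 33.7 ± 2.92 CPM (log2 fold change 0.39, adjusted p = 0.9995). Of 10 genes for factors of promoters in front of the gene, such as *Brf2* and the *Snapc* genes, 0 were called, and their median was 0.02. This list also held *Tbp* and *Bdp1*, which are not particular to such promoters. Of 7 genes for factors of promoters inside the gene, *Brf1* and the subunits of TFIIIC, 0 were called, with a median of −0.23. DESeq2 called 0 of these 25 genes too, and over all genes 302 had an unadjusted p under 0.05 with edgeR.

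Cysteine genes were 52 of the 189 members, and nearly all of these had no or almost no tags. A cluster of 48 cysteine loci spans 230 kb on chromosome 6, and 28 of them, with 1 locus elsewhere, have the sequence shown for n-Tc38. In 37 of the 48 the precursor score was 0 in every library. The exception was n-Tc5, with precursor scores of 84.2, 192 and 92.6 in the wild type and 80.6, 216 and 90.0 in the knockout. The genotypes matched closely, with WT2 and KO2 the highest of each, a log2 fold change of 0.02 ± 0.72 (95% interval −1.40 to 1.44) and an adjusted p of 0.983. The other 47 loci together had a precursor score of 0 in WT1, WT2, KO1 and KO2, 0.48 in WT3 and 5.09 in KO3. The mature score of n-Tc5 was 0.03 in KO2 and 0 in every other library, so this locus had precursor tags with almost no mature tags. The locus lies in an intron of the noncoding gene *Gm16630*, on the opposite strand. Counted from the 5′ end of the gene, its sequence differs from that of n-Tc38 by A41C and C61G, and n-Tc38 differs from n-Tc52 on chromosome 17 by G16T. The mature score of the 48 loci summed to 0, 1.52 and 5.32 in the wild type and 1.29, 4.33 and 26.0 in the knockout, which is low and overlaps.

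A further 13 alanine loci in 2 clusters on the X chromosome, of 8 and 5 genes, were at 0 in precursor score in all libraries. In mature score 10 of them were at 0 as well, and the sum of all 13 was at most 1.52.  In all, 19 members were at 0 in both scores, and 20 in the mature score.

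Loci with and without precursor tags were compared in sequence. Of the 79 members with a mean precursor score of at least 1, 77 (97.5%) had the letters TTTT on the gene's strand within 60 bases behind the gene, and the others were n-Tr6 and n-Te18. Among the 110 members below that mean it was 79 (71.8%), and among the 50 of these outside the clusters of chromosomes 6 and X it was 27 (54.0%). In 433 windows of the same length about 1 kb further on it was 33.0%. GTTCNA was present on the gene's strand in 75 of the 79 (94.9%), in 97 of the 110 (88.2%) and in 6.93% of 433 windows of the gene's length about 1 kb further on. In the clusters on chromosomes 6 and X, where most or all loci were at 0 in precursor score, TTTT followed 40 of the 48 cysteine loci on chromosome 6 and 13 of the 13 alanine loci on the X chromosome, and GTTCNA was in 46 and 13 of them. Of the 189 members, 115 were intergenic, 65 of which had a mean precursor score of at least 1. Of the 37 in an intron on the strand of the host gene 5 did, of the 35 that overlapped genes only on the opposite strand 7 did, and of the 2 in an exon both did. Without the cluster on chromosome 6, which held 28 of the 37 and 20 of the 35, these counts were 5 of 9 and 6 of 15.

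Sets of members with the same gene sequence allowed a comparison of loci that differ only in their surroundings. There were 21 such sets with 83 loci, and in 16 of them at least 1 copy had a mean precursor score of 1 or more. In 15 of these sets every copy had some score, and the highest copy exceeded the lowest by a median of 5.41-fold, from 1.16-fold at the glycine genes n-Tg8 and n-Tg7 to 139-fold at valine. In this valine set n-Tv23 on the X chromosome had a mean of 57.0 and n-Tv22 a mean of 0.408. The aspartate gene n-Td14 had 38.7 and its copy n-Td15, in the same cluster on chromosome 5, had 1.57. The mature scores of the copies differed by at most 1.08-fold. How tags shared by copies were divided among them is not given, so the mature scores are not read as levels of single genes. Over all tRNA loci, only 46.5 to 61.0% of the precursor scores above 0 in a library came to whole tags. Precursor scores of copies may thus hold shared tags too, and the ratios above carry that limit. Nor were these scores divided by the length of the flanks. The first T run began at position 22 behind n-Tv23 and at 8 behind n-Tv22.

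**Figure D4:**
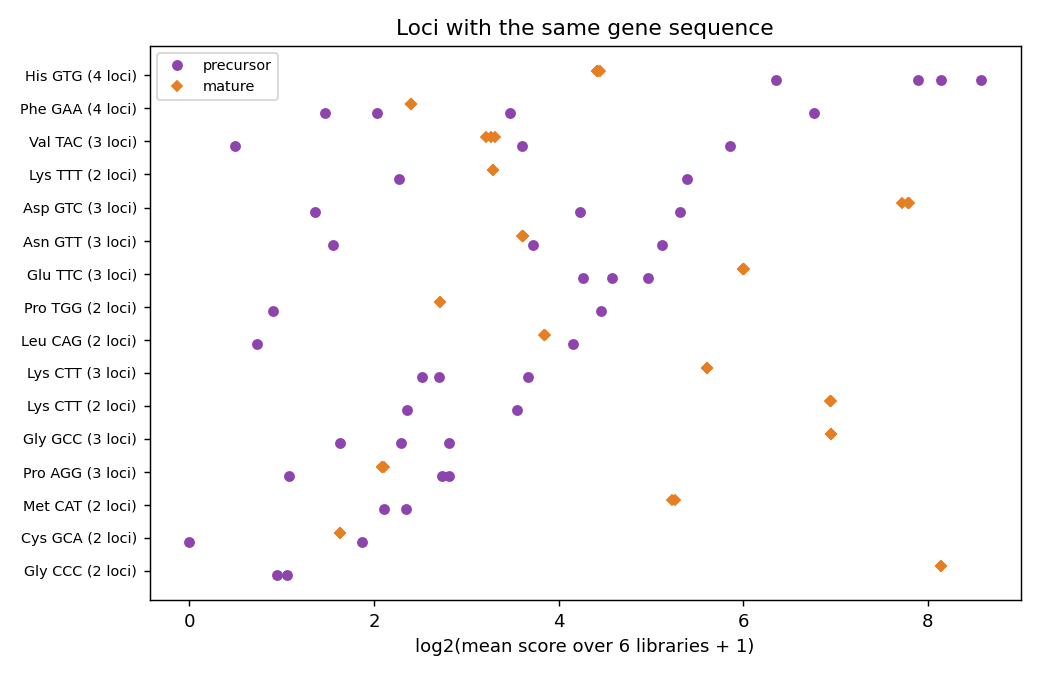
Mean score over the 6 libraries, as log2(mean + 1), of the loci in each of the 16 sets of members that share 1 gene sequence. Circles are precursor and diamonds mature scores, 1 per locus. Precursor scores within a set are spread, by 139-fold in the valine set, while mature scores lie within 1.08-fold of each other.

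Mature scores were tested at 100 members. By limma 0 were called higher or lower in the knockout, as over all 312 loci tested (0% in both directions), and 4 members had an unadjusted p under 0.05, against 22 of all loci, while edgeR on the recovered tags called 0. With the replicate block 48 of the 100 were called higher, where 49% of all loci were called, and 21 of 97 with the block and equal summed mature scores, where 22.5% of all loci were called. The median log2 fold change was 1.03 for the members tested and 1.07 for all loci tested. Since loci such as n-Ta8 entered this test through the knockout alone, neither value is read as a direction. The genotypes did not overlap, with the knockout higher, at 13 of the 100 members (13.1% of all loci), and at none in the other direction (0%). The members with the lowest p were the tryptophan gene n-Tw2, the alanine gene n-Ta8, the serine gene n-Ts13 and the arginine gene n-Tr2. At n-Tw2 the mature score was 0, 4.57 and 5.98 in the wild type and 11.7, 39.9 and 33.5 in the knockout, with a log2 fold change of 2.95 ± 1.18 (adjusted p = 0.635, and 2.89e-10 with the replicate block). These genotypes were apart, and the precursor score of the locus, 1.01, 3.05 and 0 against 0, 0 and 0.93, was too low for the test. At n-Ta8 the mature score was listed at 0 in all wild-type libraries and at 2.48, 4.05 and 4.03 in the knockout, with no precursor tag in any library. This locus passed the filter only through the knockout libraries, so its p-values are not read as a direction. The methionine gene n-Tm16 had 4.56, 9.37 and 30.4 against 20.4, 75.0 and 79.5, with overlap. With the block the loci n-Ta8, n-Ts13, n-Tr2 and n-Tm16 were also among those called, with adjusted p of at most 0.00450. The block rests on a pairing by replicate number that was not established, so its p-values carry that limit.

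After n-Ts2, the next highest mature scores belonged to aspartate and glycine genes with few precursor tags. The aspartate gene n-Td16 on chromosome 10 had mature scores of 228, 214 and 1008 in the wild type and 452, 164 and 978 in the knockout, with a log2 fold change of 0.19 ± 0.84 (adjusted p = 0.886). The glycine gene n-Tg8 had 199, 136 and 542 against 294, 209 and 308, a log2 fold change of 0.12 ± 0.89. Its copy n-Tg7 had nearly the same values, and at n-Td15, which shares its sequence with 13 loci in all, they were 84.7, 80.7 and 412 against 231, 93.8 and 420. At all of these WT3 was the highest wild-type library and the genotypes overlapped. The precursor score of n-Tg8 was at most 1.93 and that of n-Td16 at most 21.5 in any library. The initiator methionine gene n-Tm3, whose tRNA starts protein synthesis, had precursor scores of 0, 0.76 and 0.48 in the wild type and 0 in each knockout library, below the filter. Its mature score was 1.26, 4.40 and 13.6 against 1.49, 6.34 and 20.1, with a log2 fold change of 0.37 ± 1.16 (adjusted p = 0.855).

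The precursor and the mature change were compared directly at the 75 members tested in both. The median of the difference in log2 fold change was 0.16, with 43 of the 75 above 0. Over all 258 loci tested the median was 0.47, with 167 above 0. Loci such as n-Tp10 passed the precursor filter through the knockout alone, so these values are not read as a direction. By limma 0 members were called in either direction, where 1.94% of all loci were called with a larger precursor change and 0% with a larger mature change. At an unadjusted p under 0.05 there were 7 members, against 39 of all 258 loci. With a pseudocount of 5 or a minimum mean of 5 a single member was called, and with the block n-Tp10 and n-Th10 were called, 2.67% of the members against 5.43% of all loci. Scaled to equal mature sums, 1 member was called with the larger mature change. The difference was −1.98 (95% interval −4.26 to 0.30) at n-Tm16 and −1.34 (−3.17 to 0.49) at n-Tr2, which stood on the other side from the histidine loci.

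**Figure D5:**
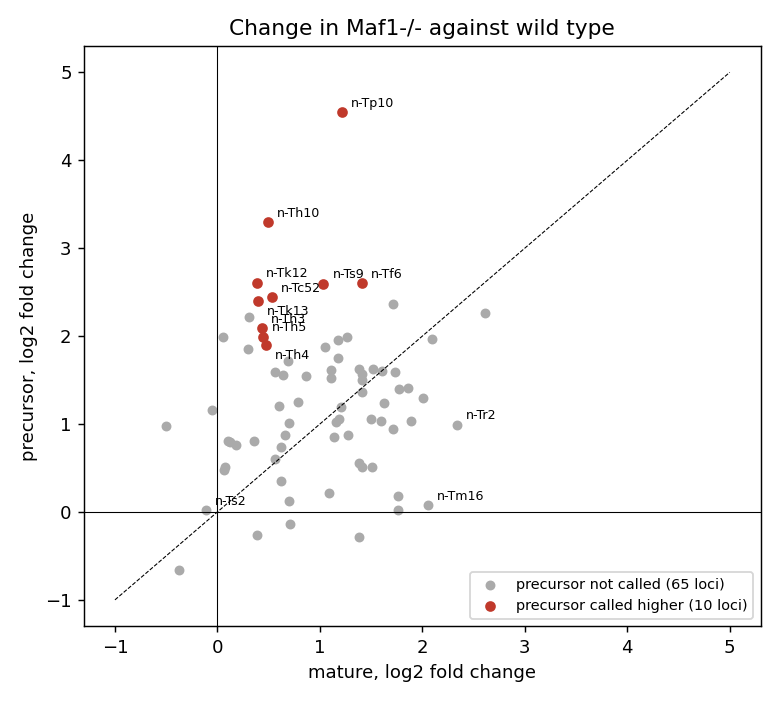
Log2 fold change of the precursor score (vertical) against that of the mature score (horizontal), *Maf1*-/- against wild type, at the 75 members tested in both. The dashed line marks equal changes. The 10 loci called in precursor score lie above the line, with mature changes between 0.39 and 1.41. They were picked by their precursor change in these data, which favours a place above the line. By limma 0 of the 75 members were called for the difference.

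By isotype, the precursor calls fell on 6 of the 19 isotypes with a tested member. All 4 histidine loci were called, with a median log2 fold change of 2.04, and their summed score was 391 in the wild type and 1566 in the knockout on average, where the mature sum was 79.9 and 83.9. Of the lysine loci 2 of 8 tested were called, with a median of 1.74, and of the serine loci 1 of 5, with a median of 1.88. Among the 7 arginine loci, all of which were tested, 0 were called and 6 were above 0, with a median of 1.16. Of all 276 tRNA loci tested, 263 were above 0. Of 8 leucine loci tested 0 were called, with a median of 1.05, and of 5 glycine loci 0, with a median of 0.80. By chromosome, 4 of 9 tested members were called on chromosome 17, 3 of 7 on chromosome 2, 2 of 2 on chromosome 4 and 1 of 7 on chromosome 19. On chromosomes 5, 7, 10 and 14, with 8, 9, 8 and 8 members tested, 0 were called and the medians were 1.11, 0.51, 0.84 and 0.97. Over all tRNA loci tested, 24.6% were called. The calls on chromosome 2 are copies of the same histidine gene, and those on chromosome 17 include n-Tk12 and n-Tk13, which share scores. Such calls are not independent. All 4 loci called on chromosome 17 passed the filter only through the knockout libraries. These counts describe the loci and were not tested against each other.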

How the data were processed

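Total RNA from eWAT of 6 mice was sequenced with strand information kept. Per the labels, the authors processed the reads with CASAVA, GSNAP, HTSeq and edgeR on mm9. The deposited gene table held the authors' expected counts, which were whole numbers and were used as such, and columns of their own comparison, which were not used. The deposited tRNA tables held a score for each locus, made by the authors from precursor-only or mature tags and scaled between libraries; how tags shared by loci were divided is not given in the sources used here. Depth was 7207476 to 15971900 gene counts a library. Intervals and p-values of the fits rest on the variation between mice of the same genotype. In the block fits, differences between replicate numbers are first taken out.

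Loci whose score averaged 1 or more over the libraries were tested on log2(score + 1) with limma 3.58.1 (trend, R 4.3.3) over all 433 loci, with Benjamini-Hochberg adjustment over all loci tested and a threshold of 0.05. The precursor, the mature and the difference of both were fitted. Gene counts were tested by quasi-likelihood in edgeR 4.0.16 and, as an alternative, DESeq2 1.42.0. Errors are SD over 3 mice, or SE of a log2 fold change. Other alternatives were pseudocounts of 0.1 and 5, a minimum mean of 5 or none, other scalings, no trend, edgeR on recovered tags, a block for the replicate number, and each library left out in turn. Sequences and gene positions came from the mm9 genome and GENCODE M1. The tests were checked on simulated data with known changes. Of log2 changes of 1, 2 and 3, the precursor test recovered 0%, 31.25% and 56.52%, and the mature test 0%, 14.29% and 0%. The edgeR test of genes recovered 1.59%, 26.09% and 73.53% of log2 changes of 1, 2 and 4. Loci and genes that were not called may thus still have changed.

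The members and lists were chosen with earlier results of these data known. Named loci were the 10 largest changes past the threshold without overlap, the 5 highest means in each score, the selenocysteine and initiator methionine loci, loci with a mean of at least 10 and a log2 fold change within 0.5 of 0, the lowest change, and the highest loci of each cluster and chromosome; others named were chosen after their values were seen. Deviations from the group means of same-numbered libraries correlated at 0.66, 0.36 and 0.34 over genes, at 0.27, −0.07 and 0.23 over precursor scores and at 0.35, 0.12 and 0.09 over mature scores. The numbers thus met the criterion for pairing (every pair above 0.1) in the genes and not in the scores. The unlike-numbered libraries WT2 and KO3 correlated at 0.47 over genes, above the same-numbered pairs at 0.36 and 0.34. Over mature scores WT2 and KO3 correlated at 0.42, above every same-numbered pair. The correlations thus do not establish the replicate number as a pairing. Block values are given for counts and for some single loci, and all of them rest on a pairing that was not established.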

Additional observations from a re-analysis of the deposited data

How the results depend on the processing

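The number of members called higher in precursor score, 10 as reported, was 6 with a pseudocount of 5, 3 of 106 with no filter, 21 with the replicate block, 1 to 15 when 1 library was left out and 0 without WT3 and KO3. The last setting, and the block combined with equal mature sums, were chosen after seeing the data. In mature score 0 members were called, but 48 with the replicate block and 21 with the block and equal mature sums. For the difference of both changes, 0 as reported, a larger precursor change was called at 1 member with a pseudocount of 5 and at 1 with a minimum mean of 5, at 2 with the replicate block, at 3 with the block and equal mature sums, and at 0 to 1 when 1 library was left out. A larger mature change was called at 1 member with equal mature sums, with or without the block. The ratio of summed precursor scores, 2.79, was 1.75 with equal mature sums and 2.07 to 3.52 when 1 library was left out. That of mature scores, 1.11, was 0.901 with equal mature sums and 0.739 to 2.36 when 1 library was left out, so its direction turned. No selenocysteine or promoter factor gene was called by any alternative run, the replicate block and DESeq2 included. Among the named loci, the precursor change turned its sign in 49 of 673 values, at 13 of 38 loci, of which 0 were called, and the mature change in 65 of 697. The causes were not tested.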
